A study of Mus musculus with 6 samples.

Results

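The genes described here are 10 genes of leukotriene and prostaglandin synthesis, Alox5, Alox5ap, Alox15, Lta4h, Ltc4s, Ptgs1, Ptgs2, Ptges, Hpgds and Pla2g7, in mouse bone marrow cultures given heme or vehicle. They were chosen by name, each through a probe set naming no other gene, and the brightest on average where a gene had several. Of these genes 9 had such a probe set, 1 each, out of 19936 genes represented on the arrays. For Ptgs1 the probe annotation used here listed none, and it is not analysed here. All 9 measured genes reached the level filter described below, as did 11516 genes in total.

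There were 6 groups, each with 1 array: heme at 6, 24 and 72 h and vehicle at 6, 24 and 72 h. All cultures came from bone marrow of mice homozygous for the Spic igfp allele, written Spic(igfp/igfp), so the vehicle cultures carried it too, and none of these arrays is wild type. Marrow cells were grown with serum (10%) and the cytokine GM-CSF (20 ng/ml), which drives growth of myeloid cells. On day 6 they received heme at 80 µM (the labels print the unit as µm) or the vehicle, a saline solution with ammonium hydroxide, and the adherent cells were collected. The sources used here do not give the ages of the mice, what the igfp allele carries, or whether arrays came from separate mice or cultures.

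Eicosanoids are signalling lipids made from arachidonic acid, which phospholipases release from membranes. Myeloid cells turn it into leukotrienes through 5-lipoxygenase (Alox5) with its activating protein (Alox5ap), after which Lta4h makes the neutrophil attractant leukotriene B4 and Ltc4s makes the glutathione conjugate leukotriene C4. The cyclooxygenases Ptgs1 and Ptgs2 start the prostaglandin arm, in which Ptges makes prostaglandin E2 and Hpgds makes prostaglandin D2. Pla2g7 encodes a secreted enzyme that inactivates platelet-activating factor, a lipid mediator of the same cells.

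Sequences just before the start of 3 of these genes are shown because their heme minus vehicle differences ran in 3 ways: Alox5 changed sign with time, Lta4h was lower and Pla2g7 was higher at each time. The sequences are the 250 bases before the start in the RefSeq table of build GRCm38.p6, written 5′ to 3′ along the gene's strand. Capitals mark matches to the GC box (GGGCGG) or the PU box (GAGGAA, bound by the family of transcription factors to which SPI-C, the product of Spic, belongs), on either strand. No 2 matches overlapped in the sequences shown, and the table's start for Pla2g7 lies inside the annotated gene, downstream of its first annotated base.
Alox5, chr6:116461179-116461428, minus strand: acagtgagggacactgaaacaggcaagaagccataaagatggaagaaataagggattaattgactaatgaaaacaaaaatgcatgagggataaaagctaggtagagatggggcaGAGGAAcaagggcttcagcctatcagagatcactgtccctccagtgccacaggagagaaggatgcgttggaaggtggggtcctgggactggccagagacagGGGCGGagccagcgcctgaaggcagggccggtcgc
Lta4h, chr10:93453146-93453395, plus strand: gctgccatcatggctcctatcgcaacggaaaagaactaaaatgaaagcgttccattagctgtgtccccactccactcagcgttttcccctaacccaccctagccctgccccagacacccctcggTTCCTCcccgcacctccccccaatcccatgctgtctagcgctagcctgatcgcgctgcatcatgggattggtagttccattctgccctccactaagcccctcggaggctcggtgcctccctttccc
Pla2g7, chr17:43568201-43568450, plus strand: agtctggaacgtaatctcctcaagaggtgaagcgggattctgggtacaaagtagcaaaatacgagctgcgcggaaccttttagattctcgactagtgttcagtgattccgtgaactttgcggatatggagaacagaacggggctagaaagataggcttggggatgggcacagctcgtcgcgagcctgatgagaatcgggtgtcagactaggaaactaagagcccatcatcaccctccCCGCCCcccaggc

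The Alox5 window held 1 GC box and 1 PU box, the Lta4h window 1 PU box and the Pla2g7 window 1 GC box. Among the windows of 27025 genes of the same length, 32.9% held a GC box and 23.1% a PU box. Also searched, on both strands, were TGACNNNGC, the core of the antioxidant response element (10.1% of windows), TGANTCA, the AP-1 site (6.87%), and TATAAA, the TATA box (13.0%). The element core and the AP-1 site can overlap each other. None of these last 3 was present in the windows of the 8 members in the table (Alox5, Lta4h, Ltc4s, Ptgs1, Ptgs2, Ptges, Hpgds and Pla2g7). A match is a run of letters and not a shown binding site.

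Levels are log2 values, and differences are heme minus vehicle on the log2 scale. The level filter was 5.37, the median of all values, and no level below it was shown to be above background. A fold that involves such a level is given as "at least", with that level set to 5.37. With 1 array per group a difference at 1 time has no replicate check. Over the 3 times, treatment and time were fitted together with limma and p-values were adjusted over all 11516 genes. These p-values weigh the mean difference against an error taken from its variation between times, pooled with that of all genes kept. The pooled part has more weight (7.17 prior against 2 residual degrees of freedom). The time points are not replicates. Median levels of the 6 arrays ran from 5.34 to 5.45, highest on the 6 h heme array. The differences of all genes kept had medians of -0.10, -0.02 and 0.03 at the 3 times in order, and the first became -0.22 when arrays were centred on their medians.

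The cultures carried macrophage markers: all 8 reached the filter, led by Lyz2 and Cd68, and their mean level was 10.26 to 10.85 with heme and 10.28 to 10.61 with vehicle. Of 7 dendritic cell markers 5 reached it, led by Cd74 (12.21 to 12.54) and H2-Ab1 (11.70 to 12.07). The mean of the 7 was 8.39 to 8.82 with heme and 8.29 to 8.39 with vehicle. Flt3 and Zbtb46, which define that lineage, reached the filter on no array. Mast cells, a well-known site of Hpgds and Ltc4s expression, were represented by 1 of 10 markers above the filter (Gata2, 4.95 to 5.66), and Cpa3, Mcpt4, Tpsb2 and Fcer1a reached it on no array. Besides the neutrophil marker Csf3r, 4 markers rose with heme: the macrophage marker Cd14 (limma, adjusted p = 0.00825), the dendritic cell marker Ccr7 (0.0279) and 2 of 4 measured platelet markers. Among all genes 1.13% were called higher. The other macrophage and dendritic cell markers were not called in either direction. Among them Fcgr1 had differences of -0.52, -0.81 and -0.41 (limma, adjusted p = 0.0999). Mertk had -0.53, -0.23 and 0.15, and Itgax 0.27, -0.03 and -0.50. The platelet list, of which 3 reached the filter, had a mean of 7.14, 7.85 and 8.56 with heme at 6, 24 and 72 h, against 6.61, 6.09 and 6.55 with vehicle. Pf4, platelet factor 4, was at 10.42, 11.65 and 12.41 with heme, against 9.44, 9.39 and 10.01 with vehicle (limma, adjusted p = 0.00738). Ppbp, a platelet chemokine, was at 7.87, 9.17 and 11.37 with heme, against 6.75, 4.97 and 6.29 with vehicle (limma, adjusted p = 0.02). In the same list Itga2b stayed near the filter (5.08 to 5.56), with differences of -0.06, 0.14 and 0.48 (limma, adjusted p = 0.812). Gp9 reached the filter on no array. The part of these markers in the members' levels was not tested. In such bulk samples fewer cells of a type and less RNA per cell cannot be told apart.

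Over the 3 times 1 of the 9 measured members rose with heme, Pla2g7, and 1 fell, Lta4h, while 7 did not pass the test. Among all genes 1.13% were called higher and 0.59% lower, 1.72% together. Of these calls 65.7% were higher, against 58.1% after median-centring, 72.6% after a second quantile normalization, 76.2% after cyclic loess and 94.4% of 18 calls without the time term. At an unadjusted p below 0.05 (limma) 6 of the 9 members stood, against 10.6% of all genes kept. The members were chosen with earlier results of these data known, so this share is no test of the list. The median of the members' mean differences was 0.13, against -0.03 for all genes kept. Across single arrays, 3 members were higher with heme at all 3 times (Ptgs2, Ptges and Pla2g7), 2 were lower at all 3 (Lta4h and Hpgds) and 4 changed sign (Alox5, Alox5ap, Alox15 and Ltc4s). Of all genes kept, 12.8% were higher and 17.4% lower at all 3 times.

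**Figure D1:**
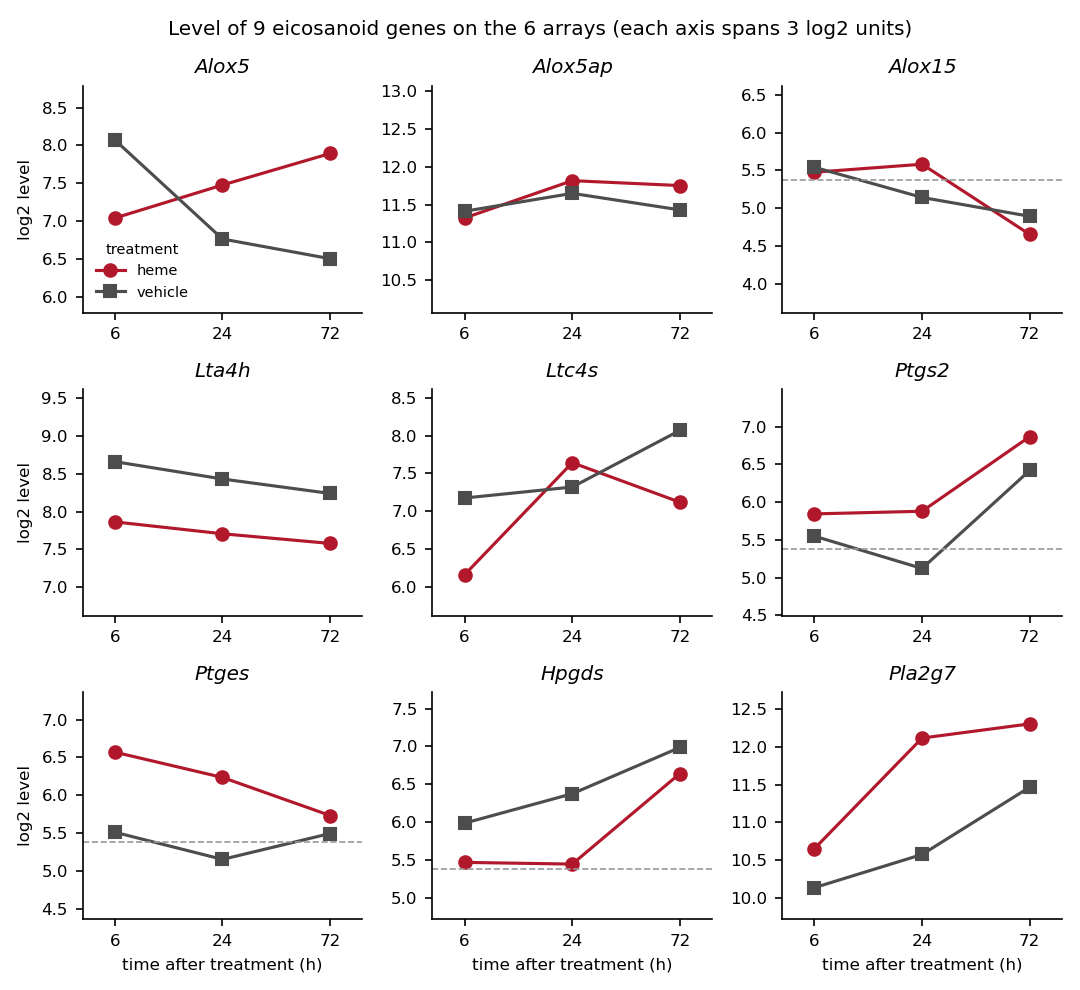
Log2 level (vertical axes, each spanning 3 log2 units) of the 9 measured eicosanoid genes at 6, 24 and 72 h, with heme (circles) and vehicle (squares), 1 array per point; the dashed line is the level filter of 5.37. The Alox5 lines cross between 6 and 24 h, whereas the Lta4h lines stay apart at every time.

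Alox5, 5-lipoxygenase, had the widest swing among the members. Its level was 7.04, 7.48 and 7.89 with heme at 6, 24 and 72 h, against 8.07, 6.76 and 6.50 with vehicle. It was thus higher at each later time with heme and lower at each later time with vehicle, and the 2 sets of arrays overlapped. Alox5 was 2.05-fold lower with heme at 6 h (-1.03), then 1.64-fold higher at 24 h (0.71), then 2.63-fold higher at 72 h (1.39). Averaged over the times it was 0.36 ± 1.25 (SD, n = 3 time points) and did not pass (limma, adjusted p = 0.853, 95% interval -0.46 to 1.17). Without the 6 h pair the mean was 1.05 (limma, adjusted p = 5.63e-05, from a fit with 1 residual degree of freedom and a prior of 46.9), and without the 72 h pair it was -0.16 (limma, adjusted p = 0.88). Over all alternatives its adjusted p ran from 5.63e-05 to 0.997. Whether the difference itself changed with time was not tested, since 1 array per group leaves no error term for it.

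The change in the Alox5 difference between 6 and 72 h was 2.43 log2 units, the 9th largest upward change of 11516 genes, counted after its values were seen. Alox5 was also the 1 gene, or 0.00868% of those kept, that was at least 2-fold lower at 6 h and at least 2-fold higher at 72 h. That count rests on a 6 h difference close to the threshold: it was -0.97 after a second quantile normalization and -0.97 after cyclic loess, where 0 genes met the rule, as with an offset of 16 on the linear scale (-0.95). At 1.5-fold, 34 genes met it, Alox5 among them.

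**Figure D2:**
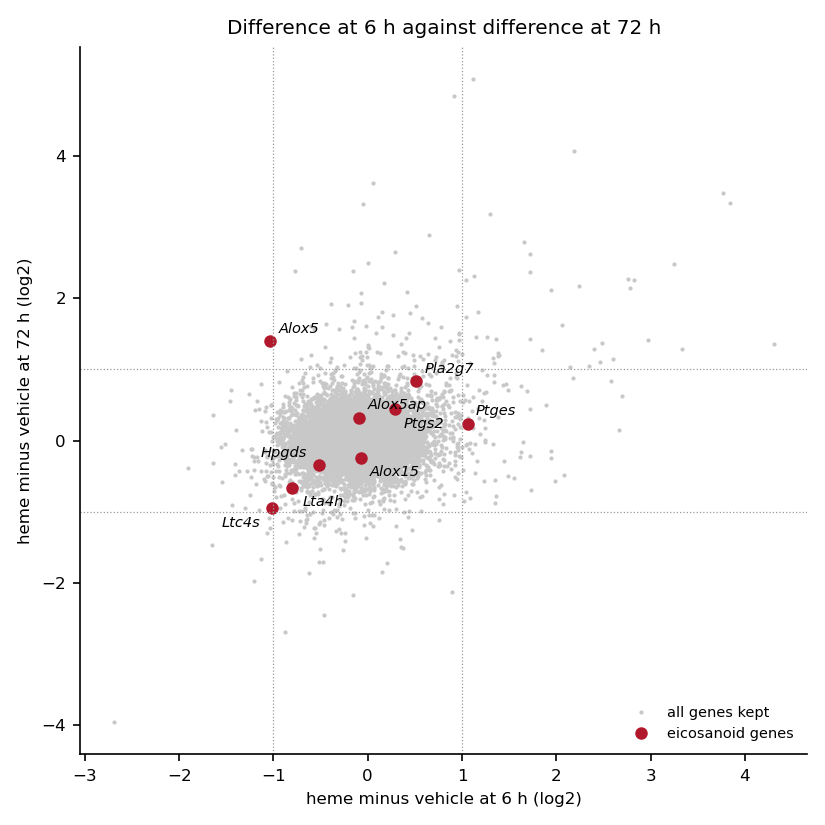
Heme minus vehicle difference at 6 h (horizontal axis, log2) against that at 72 h (vertical axis, log2) for all 11516 genes kept (grey) and the 9 measured eicosanoid genes (red), with dotted lines at 2-fold. Alox5 stands alone in the upper left field, at -1.03 and 1.39, and Ltc4s lies near 2-fold lower at both times.

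Granulocyte markers moved on the same arrays. The mean of 10 neutrophil markers was 7.92, 7.46 and 6.19 with heme at 6, 24 and 72 h, against 7.66, 6.32 and 5.94 with vehicle, and 9 of them reached the filter, Retnlg being the exception. Csf3r, the granulocyte colony-stimulating factor receptor, was the 1 neutrophil marker that passed (limma, adjusted p = 0.00661), at 6.37, 7.73 and 9.04 with heme and at 5.40, 6.73 and 7.63 with vehicle, so it was higher at later times under both treatments. S100a9, a neutrophil calcium-binding protein, was at 12.13, 11.66 and 8.30 with heme and at 12.08, 9.53 and 7.25 with vehicle. The vehicle decline of Alox5 thus ran beside that of the neutrophil mean, whereas with heme Alox5 was higher at later times and the neutrophil mean lower. Prg2, an eosinophil granule protein, had differences of -1.15, 0.78 and 0.44, with levels of 8.07, 8.03 and 5.78 with heme and 9.22, 7.24 and 5.35 with vehicle. These were the signs of Alox5, and also of Alox5ap, Mgst2, Ephx1, Prxl2b, Ptger2, the eosinophil marker Epx and other listed genes. The share of all genes with them was not counted. Of the 5 eosinophil markers 3 reached the filter, their mean running from 4.91 to 5.47 with heme and from 5.05 to 5.85 with vehicle, and Siglecf had differences of -0.71, -0.40 and -1.13. The part of granulocytes in the Alox5 levels was not tested.

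**Figure D3:**
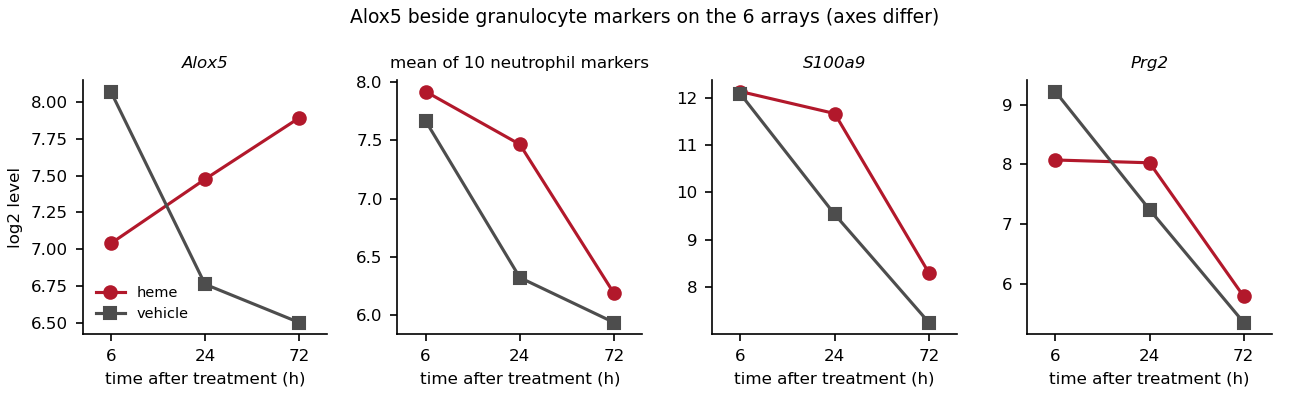
Log2 level (vertical axes, which differ) of Alox5, of the mean over 10 neutrophil markers, of S100a9 and of Prg2 at 6, 24 and 72 h with heme (circles) and vehicle (squares), 1 array per point. With heme Alox5 was at 7.89 at 72 h, its highest heme level, while the neutrophil mean was at 6.19, its lowest heme level.

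The genes whose 6 levels, centred on their means, lay closest to those of Alox5 were Glrx, Prom1, Pgm2l1, Psmc1 and Tuba4a. Their root mean square distances were 0.28 to 0.30 log2 units and Pearson's r was 0.875 to 0.961 over the 6 arrays, which share treatment and time. Prom1 lay below the filter at 6 h with heme (5.32) and at 24 and 72 h with vehicle (5.35 and 5.14). Glrx, glutaredoxin, had differences of -0.38, 0.46 and 0.94 at 6, 24 and 72 h. Tuba4a, an alpha-tubulin, had differences of -0.57, 0.77 and 1.56.

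Alox5ap, the 5-lipoxygenase activating protein, was at 11.32, 11.82 and 11.75 with heme, against 11.41, 11.65 and 11.43 with vehicle. The arrays overlapped. Its differences of -0.09, 0.17 and 0.32 rose with time, as did the medians of all genes kept (-0.10, -0.02 and 0.03). Over the 6 arrays Pearson's r between Alox5ap and Alox5 was 0.256. It did not pass (limma, adjusted p = 0.867, mean 0.13, 95% interval -0.19 to 0.45).

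Lta4h, leukotriene A4 hydrolase, fell by nearly the same amount at every time. It was at 7.86, 7.71 and 7.58 with heme, against 8.66, 8.43 and 8.24 with vehicle, and the highest heme level lay below the lowest vehicle level. Of all genes kept, 5.85% had heme arrays wholly below vehicle arrays. The difference was -0.73 ± 0.07 (SD, n = 3 time points; limma, adjusted p = 0.0289, 95% interval -1.03 to -0.43), or 1.66-fold lower. Its call held after each rescaling, and its adjusted p missed the threshold when the 24 h arrays (limma, adjusted p = 0.40), the 72 h arrays (0.0597) or the time term (0.199) were left out, with the mean difference between -0.76 and -0.73. Its lowest adjusted p over the alternatives was 0.011.

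Ltc4s, leukotriene C4 synthase, was at 6.16, 7.64 and 7.12 with heme, against 7.17, 7.32 and 8.07 with vehicle. It was lower with heme at 6 h (-1.02, 2.02-fold) and 72 h (-0.95, 1.93-fold) and higher at 24 h (0.32), and the arrays overlapped. The mean of -0.55 ± 0.75 did not pass (limma, adjusted p = 0.465, 95% interval -1.09 to -0.003).

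Alox15, the lipoxygenase of eosinophils and resident macrophages, was near the filter throughout. It was at 5.48, 5.58 and 4.65 with heme, against 5.54, 5.14 and 4.89 with vehicle. Both 72 h levels and the 24 h vehicle level lay below 5.37, and the difference did not pass (limma, adjusted p = 0.963).

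In the prostaglandin arm, Ptges, the inducible prostaglandin E synthase, was at 6.57, 6.23 and 5.73 with heme, against 5.51, 5.15 and 5.49 with vehicle. All heme arrays lay above all vehicle arrays, as they did for 5.4% of genes kept. It was 2.09-fold higher at 6 h, at least 1.82-fold higher at 24 h and 1.18-fold higher at 72 h. Its mean of 0.79 ± 0.48, at least 0.72, missed the threshold (limma, adjusted p = 0.0821, 95% interval 0.38 to 1.21). It passed after median-centring (0.0379) and when the 6 h (0.0273) or 72 h arrays (0.0133) were left out, and reached 0.732 when the 24 h arrays were.

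Ptgs2, the inducible cyclooxygenase, was at 5.84, 5.88 and 6.87 with heme, against 5.55, 5.12 and 6.42 with vehicle. It was higher with heme at each time, by 1.23-fold at 6 h, at least 1.42-fold at 24 h and 1.36-fold at 72 h, and highest at 72 h under both treatments. The mean difference of 0.50 ± 0.24, at least 0.42, did not pass (limma, adjusted p = 0.18, 95% interval 0.17 to 0.83). Over the alternatives its adjusted p ran from 0.0389, without the 6 h pair, to 0.977.

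Hpgds, prostaglandin D synthase, was at 5.46, 5.44 and 6.64 with heme, against 5.98, 6.37 and 6.99 with vehicle. It was lower with heme at each time, most at 24 h (-0.93, 1.91-fold), and the arrays overlapped across times. The mean difference of -0.60 ± 0.30 did not pass (limma, adjusted p = 0.12, 95% interval -0.95 to -0.25). Over the alternatives its adjusted p ran from 0.029, without the 6 h pair, to 0.938.

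Pla2g7, the platelet-activating factor acetylhydrolase, rose with heme. It was at 10.65, 12.12 and 12.31 with heme, against 10.14, 10.58 and 11.47 with vehicle, and the arrays overlapped only across different times. The differences were 0.52, 1.54 and 0.84, or 1.43-fold, 2.91-fold and 1.79-fold, with a mean of 0.96 ± 0.52 (limma, adjusted p = 0.0447, 95% interval 0.53 to 1.40). The value lies close to the threshold: a second quantile normalization gave 0.051, cyclic loess 0.0574, leaving out the 72 h arrays 0.0699 and leaving out the 24 h arrays 0.484 (limma, adjusted p). Over all alternatives it ran from 6.16e-06, without the 6 h arrays, to 0.872, without the time term.

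**Figure D4:**
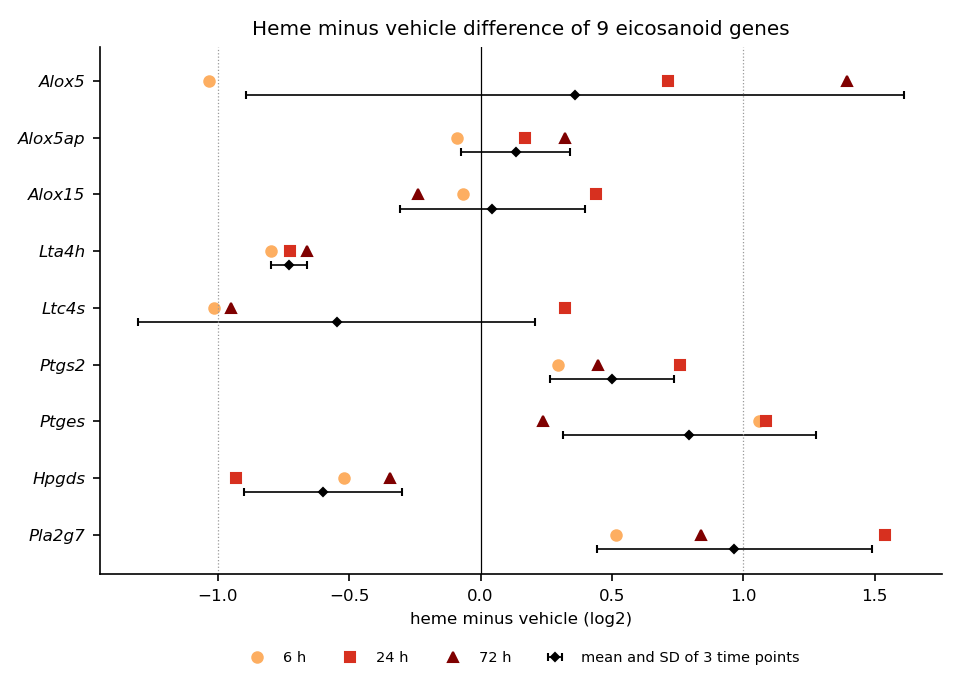
Heme minus vehicle difference (horizontal axis, log2) of the 9 measured eicosanoid genes at 6 h (circles), 24 h (squares) and 72 h (triangles), with the mean and SD over the 3 time points (black) and dotted lines at 2-fold. Lta4h has the tightest differences, -0.80 to -0.66, and Alox5 the widest, -1.03 to 1.39.

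At single times few members reached 2-fold. At 6 h Ptges was higher (0.964% of all genes were) and Alox5 and Ltc4s were lower (0.669%). At 24 h Pla2g7 and Ptges were higher by measured values (1.42%), Ptges with a vehicle level below the filter, and 0 members were lower (0.486%). At 72 h Alox5 was higher (1.25%) and 0 members were lower (0.608%), with Ltc4s at -0.95.

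Between 6 and 72 h 3 of the 9 members changed. This comparison had 1 array per treatment and time, with no replication beyond the 2 treatments. Culture time cannot be told apart from other differences between those arrays. Averaged over both treatments, Pla2g7 was 1.49 higher at 72 h than at 6 h (limma, adjusted p = 0.0054), Hpgds 1.09 higher (0.00891) and Ptgs2 0.95 higher (0.0132), while 0 members were called lower, Alox15 at -0.74 having an adjusted p of 0.0627. Of all genes kept 3.06% were called higher at 72 h than at 6 h and 3.53% lower, 6.59% together. Ltc4s, at 0.93, had an adjusted p of 0.115 (limma), and 0.0442 without the 24 h pair. In vehicle alone the 72 h minus 6 h change was 1.33 for Pla2g7, 1.0 for Hpgds and 0.87 for Ptgs2. With heme it was 1.65, 1.18 and 1.02 for the same genes, in that order. Alox5 had the 72 h minus 6 h change of 0.85 with heme and -1.57 with vehicle, and Ltc4s had 0.96 with heme and 0.90 with vehicle.

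The genes with levels closest to those of Ptgs2 were Tnc, Timp1, Mmp9, Prg4 and Tmem45a, at root mean square distances of 0.09 to 0.22 log2 units (Pearson's r 0.938 to 0.988 over 6 arrays that share treatment and time). Tnc encodes the matrix protein tenascin C, Timp1 a metalloproteinase inhibitor and Mmp9 a metalloproteinase. Each of the 5 had its highest level at 72 h with heme, and Tnc, Mmp9, Prg4 and Tmem45a lay below the filter on all arrays of 6 and 24 h. Mmp9 also lay below it at 72 h with vehicle (5.13). At 72 h Tmem45a was at 5.40 with heme and 5.38 with vehicle, just above it. The closeness of Tnc, Mmp9, Prg4 and Tmem45a to Ptgs2 thus rests largely on levels not shown to be above background. Timp1 lay above the filter on all arrays (7.72 to 9.51). On the same arrays the mean of 6 fibroblast markers ran from 5.40 to 6.27 with heme and from 5.54 to 5.98 with vehicle, with 4 of 6 reaching the filter, and was highest at 72 h under both treatments. Its part in the Ptgs2 level was not tested.

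The rest of the pathway was read from 70 further genes grouped by role. Of these 64 were measured, 45 reached the filter, 3 rose, 1 fell and 41 did not pass, against 1.13% and 0.59% of all genes. At an unadjusted p below 0.05 (limma) stood 14 of the 45, against 10.6% of all genes kept. These genes too were listed with earlier results of these data known, so this share is no test of the pathway. Those that rose were Abcc1, Ptgr1 and Lpcat2, and the one that fell was Mgll. The median of their mean differences was 0.08.

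**Figure D5:**
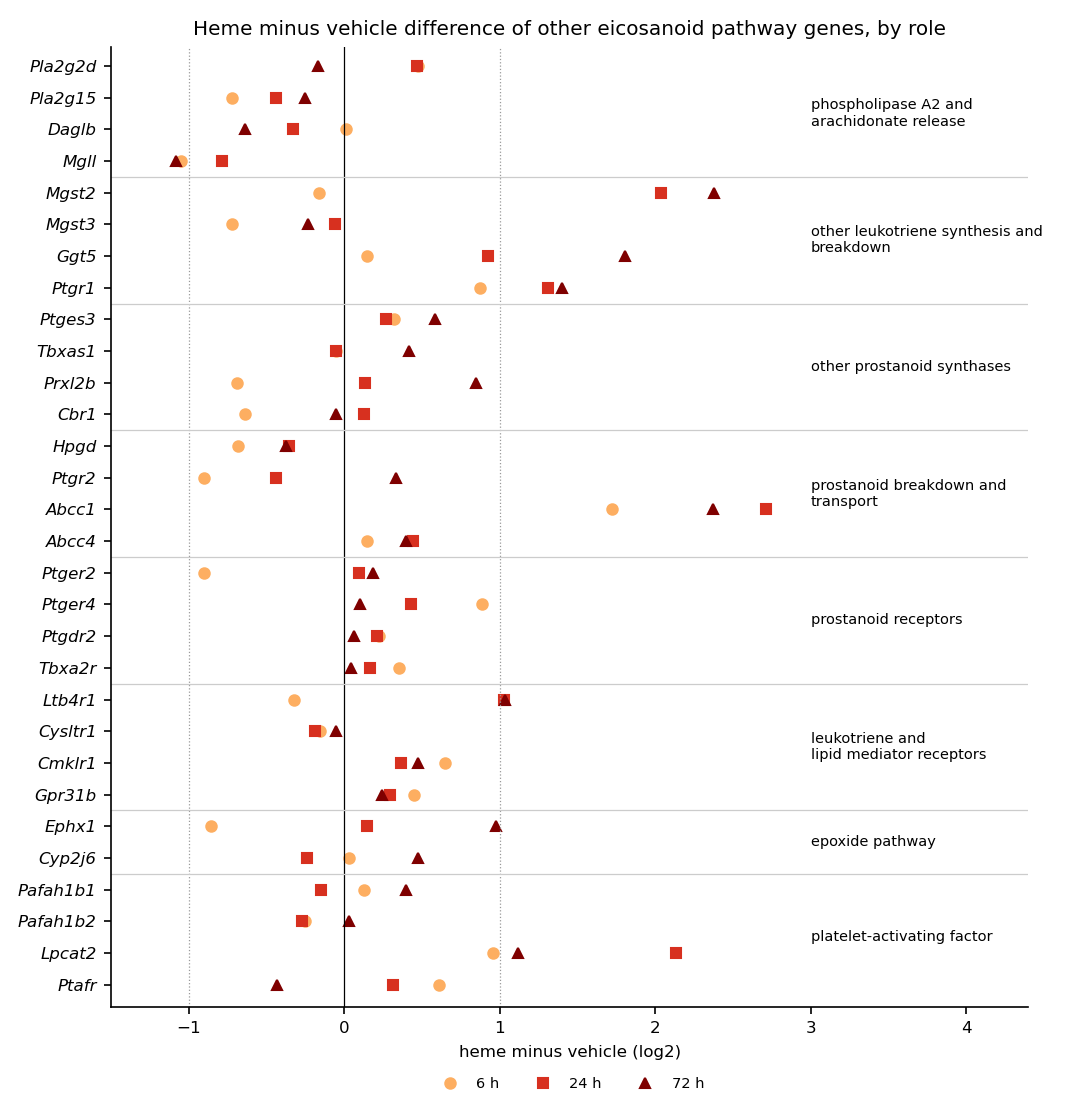
Heme minus vehicle difference (horizontal axis, log2) at 6 h (circles), 24 h (squares) and 72 h (triangles) of 30 other pathway genes grouped by role, with dotted lines at 2-fold. Abcc1 lies beyond 2-fold at all 3 times, Mgst2 at 24 and 72 h but not at 6 h, and Mgll on the lower side throughout.

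In arachidonate release, 9 of 13 measured genes reached the filter, 0 rose and 1 fell. Mgll, monoacylglycerol lipase, which frees arachidonic acid from an endocannabinoid, was at 9.85, 10.18 and 9.80 with heme, against 10.90, 10.97 and 10.89 with vehicle. The arrays did not overlap, and it fell by 0.97 ± 0.16 on the log2 scale (limma, adjusted p = 0.0106). Without the 24 h pair the mean difference was -1.07 and its adjusted p 0.169 (limma), the highest over the alternatives, the lowest being 2.63e-04. Pla2g15, a lysosomal phospholipase, had differences of -0.72, -0.44 and -0.25 (limma, adjusted p = 0.21). Daglb, which makes that endocannabinoid, had 0.01, -0.33 and -0.64, and the secreted phospholipase Pla2g2d had 0.47, 0.47 and -0.17, with 1 level below the filter. All 5 other lipoxygenases measured stayed below the filter.

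In the leukotriene branch beyond the members, 5 of 7 measured genes reached the filter, 1 rose and 0 fell. Ptgr1, an enzyme that inactivates leukotriene B4, was at 10.30, 10.96 and 10.34 with heme, against 9.43, 9.65 and 8.94 with vehicle, a rise of 1.19 ± 0.28 (limma, adjusted p = 0.0058; 0.185, at a mean of 1.14, without the 24 h pair, and 1.58e-07 to 0.196 over the alternatives). Mgst2, a microsomal glutathione transferase that can make leukotriene C4, was at 7.08, 9.64 and 9.80 with heme, against 7.24, 7.60 and 7.43 with vehicle. It was 4.11-fold higher at 24 h and 5.20-fold higher at 72 h, with a difference of -0.16 at 6 h, and its mean of 1.42 ± 1.38 missed the threshold (limma, adjusted p = 0.153). It passed after median-centring (0.0392) and reached 0.872 without the 24 h pair. Without the 6 h pair the adjusted p was 1.2e-13 (limma), from a fit with 1 residual degree of freedom and a prior of 46.9.

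Ggt5, which converts leukotriene C4 to D4, was at 5.47, 6.24 and 7.22 with heme, against 5.32, 5.32 and 5.42 with vehicle. It was at least 1.83-fold higher at 24 h and 3.50-fold higher at 72 h, and its mean of 0.96 ± 0.83, at least 0.92, did not pass (limma, adjusted p = 0.139; from 4.91e-07, without the 6 h pair, to 0.738 over the alternatives). Mgst3, a related transferase, had differences of -0.73, -0.06 and -0.23.

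Among 4 genes of prostanoid breakdown and transport that reached the filter, 1 rose and 0 fell. Abcc1, a membrane pump that exports leukotriene C4 and other glutathione conjugates, was at 9.32, 9.49 and 9.52 with heme, against 7.60, 6.78 and 7.14 with vehicle, 2.27 ± 0.50 higher (limma, adjusted p = 6e-04). Unlike the other 3 called genes of the wider pathway it also passed without the 24 h pair (limma, adjusted p = 0.0384, the highest over its alternatives, the lowest being 1.14e-15). Abcc4, a prostaglandin exporter, had differences of 0.15, 0.44 and 0.40, the prostaglandin-inactivating Hpgd -0.69, -0.35 and -0.37 (its 6 and 24 h heme levels below the filter), and the prostaglandin reductase Ptgr2 -0.90, -0.44 and 0.34.

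Of 7 other prostanoid synthases that reached the filter 0 rose or fell, with 1 at an unadjusted p below 0.05 (limma; 10.6% of all genes kept). Ptges3, a co-chaperone with prostaglandin E synthase activity, had differences of 0.32, 0.27 and 0.58 by the probe set used, and another of its 3 probe sets gave -0.01 at 24 h. Tbxas1, thromboxane synthase, had -0.05, -0.05 and 0.41. Prxl2b, a prostaglandin F synthase, had -0.69, 0.13 and 0.84, and the carbonyl reductase Cbr1 had -0.64, 0.13 and -0.05.

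Receptors did not pass either. Of 7 prostanoid receptors kept, 0 passed and 1 had an unadjusted p below 0.05 (limma; 10.6% of all genes kept): Ptger4, a prostaglandin E2 receptor, at 8.24, 8.07 and 7.90 with heme, against 7.35, 7.65 and 7.81 with vehicle. Its differences were 0.89, 0.43 and 0.10 (limma, adjusted p = 0.304). Ptger2, another receptor for it, had -0.91, 0.10 and 0.18, the prostaglandin D2 receptor Ptgdr2 0.23, 0.21 and 0.06, and the thromboxane receptor Tbxa2r 0.35, 0.16 and 0.04, with 3 levels below the filter.

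Among 4 leukotriene and lipid mediator receptors kept, 0 passed and 3 had an unadjusted p below 0.05 (limma; 10.6% of all genes kept). Ltb4r1, the high-affinity leukotriene B4 receptor, was at 7.50, 8.14 and 7.48 with heme, against 7.83, 7.11 and 6.44 with vehicle. Its differences were -0.33, 1.03 and 1.03 (limma, adjusted p = 0.445). Over the alternatives this p ran from 4.47e-05, without the 6 h pair, to 0.997. The signs were those of Alox5, and also those of Alox5ap, Mgst2, Ephx1, Prxl2b, Ptger2 and other listed genes. Cmklr1, the chemerin receptor, had 0.65, 0.37 and 0.47, Gpr31b 0.45, 0.30 and 0.24, and Cysltr1, a cysteinyl leukotriene receptor, -0.15, -0.19 and -0.05.

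In the platelet-activating factor list 1 of 7 genes rose and 0 fell. Lpcat2, an acyltransferase that makes this mediator, was at 8.50, 9.56 and 9.70 with heme, against 7.55, 7.42 and 8.58 with vehicle. It was 1.40 ± 0.64 higher (limma, adjusted p = 0.0136), with a mean of 1.04 and an adjusted p of 0.169 without the 24 h pair (limma). Over the alternatives this p ran from 9.4e-09 to 0.477. Lpcat2, which makes the mediator, and Pla2g7, which breaks it down, were both higher at each time, with differences of 0.96, 2.14 and 1.12 for Lpcat2. The receptor Ptafr had 0.61, 0.31 and -0.44, and the intracellular acetylhydrolase subunits Pafah1b1 and Pafah1b2 had means of 0.12 and -0.17. In the epoxide list 0 of 2 genes kept passed, with 0 at an unadjusted p below 0.05 (limma; 10.6% of all genes kept). There Ephx1, microsomal epoxide hydrolase, had -0.86, 0.15 and 0.98 and the epoxygenase Cyp2j6 0.03, -0.24 and 0.48, with 2 levels below the filter.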

How the data were processed

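RNA from 6 samples, 1 for each treatment and time, was hybridised to 1-colour arrays. The authors deposited log2 values, normalized by RMA and its quantile step through the ArrayStar software, per the series' design text, a summary that narrows differences of dim probe sets; the sources used here give no versions. The platform annotation gave 1 gene for 21789 of 35556 probe sets, several for 1621 and did not list 12146. Through gene identifiers or accessions 21701 matched a symbol of the GRCm38.p6 RefSeq gene table.

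Genes were kept where the highest array reached 5.37. Treatment and time were fitted on the 6 arrays by lmFit and eBayes of limma 3.58.1 (R 4.3.3; two-sided; 2 residual and 7.17 prior degrees of freedom). Calls used a Benjamini-Hochberg adjusted p below 0.05. The time points in the labels pair the arrays, whose deviations from their treatment means correlated at 0.562, 0.215 and 0.531 at 6, 24 and 72 h. The step was tested on simulated data with a heme effect equal at all 3 times. That test does not cover differences that change with time. Tables were made with Python 3.11.15. The number of arrays limits the precision.

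Members, gene lists and tests were chosen with earlier results of these data known. The genes named were the members, called pathway genes, up to 4 per role with the largest mean difference, and 5 neighbours each of Alox5 and Ptgs2. Markers were limited to the 2 highest per list, and others named were chosen after their values were seen. Alternatives were other normalizations, level filters, probe set means, an offset of 16, a threshold of 1.5-fold, no time term, other variance priors and leaving out each time.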

Additional observations from a re-analysis of the deposited data

Results flagged for a closer look

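Heme minus vehicle differences with opposite signs at different times were seen for 4 members, and with 1 array per group the difference between times was not tested. Alox5 ran from -1.03 at 6 h to 1.39 at 72 h. Alox5ap ran from -0.088 at 6 h to 0.32 at 72 h. Alox15 had its lowest difference, -0.24, at 72 h, where both levels lay below the filter, and its highest, 0.44, at 24 h. Ltc4s had -1.02 at 6 h and 0.32 at 24 h.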

How the results depend on the processing

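Of the values of single genes recomputed under the alternatives, 546 kept direction and side of the threshold, 14 lost and 11 gained the call, and 11 changed sign; the cause was not tested. Members called higher with heme numbered 1, and 0 after a second quantile normalization, 2 after median-centring, 0 after cyclic loess and 0 without the time term, which removes the pairing of arrays by time (no block). Leaving out 1 time pair gave 0 to 4. Members called lower numbered 1, 0 without the time term, and 0 to 2 without a time pair. Wider pathway genes called higher numbered 3, 1 without the time term and 1 to 6 without a time pair, and those lower 1, 0 and 0 to 1. Over all genes 198 calls became 18 without the time term, 521 when the 6 h arrays were left out and 12 when the 24 h arrays were. With the stricter level filter 1 member, against 3, was called higher at 72 h than at 6 h, since Hpgds and Ptgs2 were not tested there. At 2-fold, 1 member was higher at 6 h, but 0 after median-centring, cyclic loess or an offset of 16; 2 were lower, but 1 after a second quantile normalization and 0 after cyclic loess or the offset. At 24 h the 2 higher members became 1 with the offset; at 72 h, 1 was lower after cyclic loess, against 0. At 1.5-fold, 4 were higher and 2 lower at 24 h, and 2 higher and 2 lower at 72 h. Alox15 was at -0.0034 after cyclic loess. Without 1 time pair, mean differences ran from -0.16 to 1.05 for Alox5, -0.15 to 0.19 for Alox15, -0.053 to 0.18 for Tbxas1, -0.28 to 0.49 for Prxl2b, -0.34 to 0.038 for Cbr1, -0.40 to 0.14 for Ptger2, -0.36 to 0.56 for Ephx1, -0.11 to 0.25 for Cyp2j6, -0.012 to 0.26 for Pafah1b1 and -0.061 to 0.46 for Ptafr. Levels below the filter of 5.37 carry no exact fold.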
